A study of Homo sapiens with 21 samples.

Results

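The comparison described here was between HCC1806 cells labelled as overexpressing SRSF2 (SRSF2-OE) and HCC1806 cells labelled as their single plasmid control (1xCtrl), with 3 libraries in each group. These 6 libraries were chosen by their labels from the 21 of the series, and all genes were taken: 24362 of the 60668 gene identifiers in the table passed the filter on low counts and were tested. HCC1806 is an established human triple-negative breast cancer line, that is, one classed as lacking the oestrogen and progesterone receptors and HER2 amplification. All groups were grown as adherent cultures in DMEM with 15% serum and antibiotics and harvested near confluence, and polyA-selected RNA was sequenced as paired reads. The same table holds 2 further lines, labelled as overexpressing SRSF3 (SRSF3-OE) or SRSF7 (SRSF7-OE), with 3 libraries each. A separate table holds HCC1806 cells whose genotype the labels give only as 3xSR, and their control, 3xCTL, again with 3 libraries each. The labels give no treatment or time and do not say whether a line is a clone or a pool, nor whether the 3 libraries came from separate cultures. The p-values therefore measure the spread between libraries of a group, which may be technical. For SRSF2-OE against 1xCtrl that spread was estimated over all 12 libraries of the table, SRSF3-OE and SRSF7-OE included.

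SRSF2 (SC35) belongs to the SR proteins, nuclear factors with an RNA recognition motif and a tail rich in arginine and serine, which bind exons and recruit the spliceosome. It is a marker of nuclear speckles, takes part in the release of paused RNA polymerase II through the 7SK complex, and lowers its own mRNA by splicing that exposes the transcript to nonsense-mediated decay. Several other SR genes control their own levels in the same manner.

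The 1xCtrl libraries held 178174642 to 219765164 counts and the SRSF2-OE libraries 171640946 to 248643388, so that a count of 3 corresponded to 0.0122 to 0.0177 CPM. CPM, the counts scaled to a fixed library total, are here adjusted by the trimmed mean of M-values (TMM), and are compared between libraries for a given gene, never between genes. Mitochondrial transcripts took 10.3% to 12.8% of counts in 1xCtrl and 11.8% to 13.6% in SRSF2-OE. The library of 1xCtrl replicate 2 stood apart: genes of high GC content lay 0.78 above those of low GC content on the log2 scale, against -0.23 and -0.51 in the other 1xCtrl libraries and -0.05 to 0.11 in SRSF2-OE. Chi-square per degree of freedom was 194 and 275 between that library and its replicates and 26.2 between the other 1xCtrl pair. Counts of changed genes are also given without it. With all libraries the mean of this GC difference was 0.01 in 1xCtrl and 0.05 in SRSF2-OE. Without replicate 2, both remaining 1xCtrl libraries lie below every SRSF2-OE library in it. In that fit GC content and group therefore cannot be told apart. Of 10 genes used to check the cell type, 7 are keratins and other markers of basal-like cells and 3 are receptor genes low in triple-negative cells. They summed to 4533 to 5125 CPM in SRSF2-OE and 4458 to 5469 CPM in 1xCtrl. That sum joins genes that should be present with genes that should be low, so by itself it does not bear on the cell type. Each gene exceeded 1 CPM in at least 1 of the 6 libraries, and PGR did so only in 1xCtrl.

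The targeted gene, SRSF2, was not higher where the labels name it. SRSF2 (ENSG00000161547.16, chromosome 17, 76734115 to 76737374, minus strand, GRCh38) read 376, 407 and 413 CPM there and 442, 414 and 476 CPM in 1xCtrl. Every library labelled as overexpressing lay below every control library. The means were 398 ± 19.6 and 444 ± 31.5 CPM (SD, n = 3 each), a log2 fold change of -0.16 (SE 0.064) that missed the threshold of 0.05 (edgeR quasi-likelihood test, adjusted p = 0.098). Without 1xCtrl replicate 2 the value was -0.21 and passed it (edgeR adjusted p = 0.00951). SRSF2 read 448, 463 and 432 CPM in SRSF3-OE and 335, 351 and 336 CPM in SRSF7-OE, which placed the SRSF2-OE libraries between those lines. It shares 1106 of its 3017 annotated exon bases with a gene on the opposite strand, and whether the counting used strand, or counted reads from an introduced copy under this gene, is not given in the sources used here. Because the targeted gene does not bear out the label, every direction below is that of the libraries labelled SRSF2-OE.

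Other SR genes were higher in these libraries. Over all genes tested, 11.6% were called higher and 11.9% lower at an adjusted p under 0.05. Among the 15728 protein-coding genes tested, the type that makes up most lists, the shares were 14.9% and 15.4%. Of the 14 SR and TRA2 genes, 6 were called higher, 1 lower and 7 did not pass, with a median log2 fold change of 0.16 against -0.01 over all genes. Without 1xCtrl replicate 2 the list gave 6 higher and 3 lower, where all genes gave 14.5% and 15.6%. SRSF6, an exon-binding splicing factor (chromosome 20, 43457928 to 43464247, plus strand), read 370.4, 416 and 407 CPM in SRSF2-OE and 266, 233 and 280.3 CPM in 1xCtrl. The groups were well apart, and the log2 fold change was 0.61 (SE 0.0745, adjusted p = 9.22e-05 by edgeR). The SRSF6 level was also above that in SRSF3-OE (281, 298 and 276 CPM; log2 difference 0.48, edgeR adjusted p = 0.000446) and in SRSF7-OE (267, 263 and 245 CPM; 0.62, adjusted p = 7.93e-05). SRSF3, which binds pyrimidine-rich RNA and also acts in mRNA export, read 465, 454 and 461 CPM against 375, 335 and 414 CPM, without overlap (0.30, adjusted p = 0.00794 by edgeR). SRSF7, a zinc-knuckle SR protein with export activity like that of SRSF3, read 403, 447 and 433 CPM against 364, 352 and 372 CPM (0.24, adjusted p = 0.00681 by edgeR). SRSF9 rose by 0.35 (edgeR adjusted p = 0.000512), with 1729 of its 3744 exon bases shared with the opposite strand. TRA2A, an SR-like splicing activator, was the member called lower, at 107, 111 and 113 CPM against 137, 114 and 136 CPM (-0.22, adjusted p = 0.041 by edgeR); upper-quartile scaling ended that call.

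**Figure D1:**
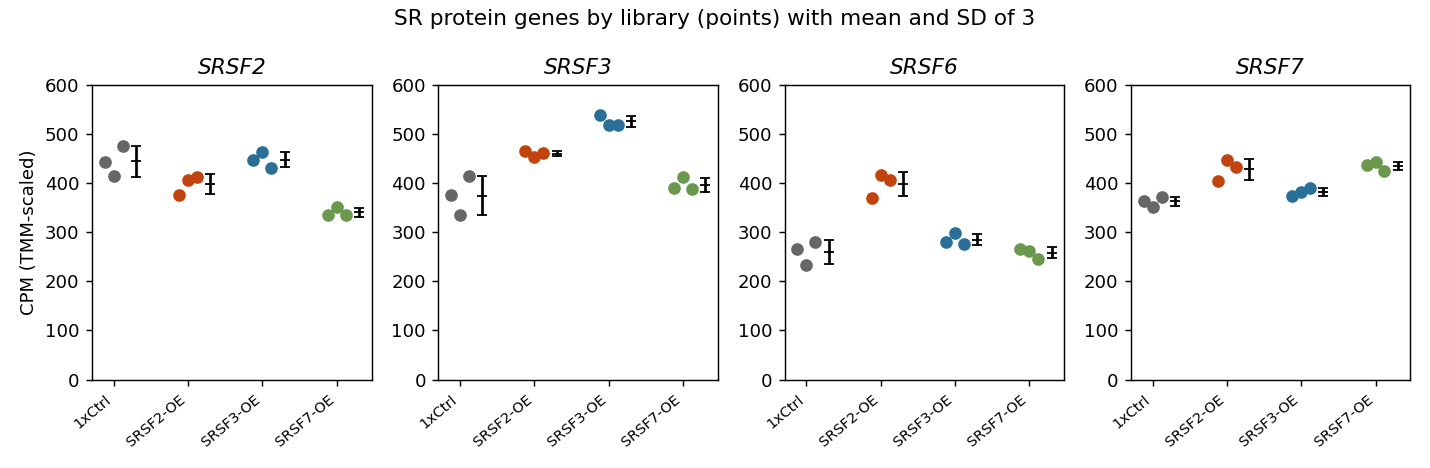
CPM of SRSF2, SRSF3, SRSF6 and SRSF7 (vertical axis, from 0) in the 4 groups of the single-line table. Points are libraries, and the bar beside them is the mean with the SD of 3. SRSF2-OE libraries lie below 1xCtrl for SRSF2 and above 1xCtrl for the other 3 genes, and SRSF6 is highest in SRSF2-OE.

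Genes for the handling and storage of SR proteins were lower or not called. Among 15 SR kinases, importers and speckle scaffolds, 0 were called higher and 4 lower, 3 of them among the 5 speckle scaffolds; without 1xCtrl replicate 2 the list gave 1 higher and 4 lower. NEAT1, the long noncoding RNA that builds paraspeckles beside the speckles, read 957, 1136 and 1097 CPM in SRSF2-OE and 1645, 1402 and 1532 CPM in 1xCtrl. Its groups did not overlap, and it fell by 0.52 on the log2 scale (SE 0.137, adjusted p = 0.0159 by edgeR). SRRM2, a large scaffold protein of speckles, fell from 885, 1074 and 865 CPM to 745, 772 and 748 CPM (-0.32, adjusted p = 0.0109 by edgeR), a call that a fit on these 2 groups alone did not make. A list of 19 genes held 5 of the 7SK complex, 3 of the elongation factor P-TEFb and 11 partners in pause release. Of these 19, 4 were called higher and 1 lower, and 9 and 3 without 1xCtrl replicate 2. The higher count was 2 on these 2 groups alone and 7 with the GC trend removed. By role, the 7SK complex gave 2 higher and 0 lower of 5, and the partners 2 and 1 of 11. MEPCE, the enzyme that caps 7SK RNA, read 45.3, 41.5 and 39.9 CPM against 25.1, 34.2 and 25.3 CPM (0.58, adjusted p = 0.00134 by edgeR), a call likewise not made on the 2 groups alone. LARP7, which holds the 3′ end of 7SK, read 53.7, 56.7 and 49.7 CPM against 40.9, 36.8 and 45.5 CPM (0.38, adjusted p = 0.00396 by edgeR). The 3 P-TEFb subunits were not called. AFF1, a scaffold of the super elongation complex, fell from 50.5, 44.4 and 51 to 38.6, 38.4 and 36.6 CPM (-0.36, adjusted p = 0.00198 by edgeR).

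Across the transcriptome, 5733 genes (23.5% of those tested) were called changed between SRSF2-OE and 1xCtrl, 2823 higher and 2910 lower. Most differences were small. The median size among the calls was 0.45 on the log2 scale, and 399 higher and 391 lower genes changed by more than 2-fold, which is 13.8% of the calls. Without 1xCtrl replicate 2 there were 7545 calls (30.0%), 3640 higher and 3905 lower. Scaling by total counts alone moved the median of all genes from -0.01 to -0.07 and the share of calls that were higher from 49.2% to 36.7% (2241 higher, 3860 lower, 9.20% and 15.8% of the genes tested). Removing the GC trend gave 4066 higher and 4123 lower genes, and the fit on these 2 groups alone 1700 and 2597. Leaving out any one library other than 1xCtrl replicate 2 gave 1767 to 2461 higher and 2877 to 3225 lower. Counts of list members under these settings, above and below, stand beside these totals. Genes that overlap others in the annotation are less certain, since how their reads were assigned is not given in the sources used here. Among the genes named below this holds for ASNS, IFITM1 and SERPINB2, with over 10% of exon bases shared on the same strand. It holds likewise for ATF5, ATP5F1E, CA9, KLK5, OVOL1 and RBM8A, with over 10% shared with the opposite strand.

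**Figure D2:**
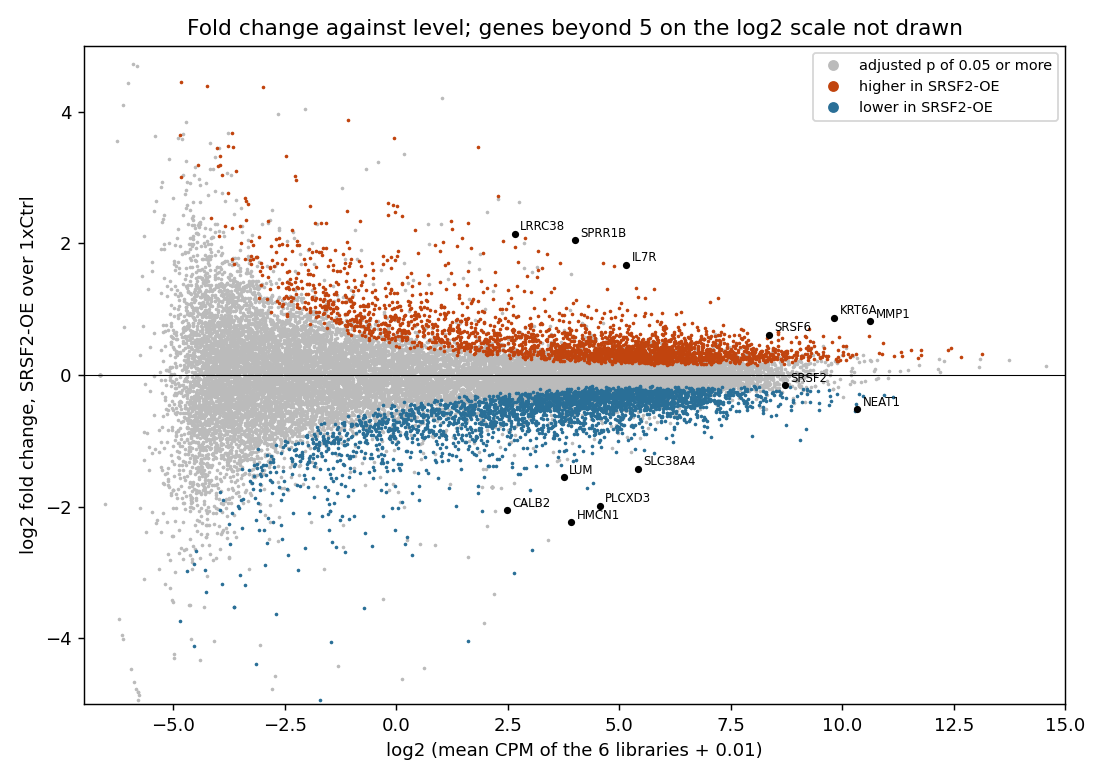
Log2 fold change of SRSF2-OE over 1xCtrl (vertical axis) against the log2 of mean CPM over the 6 libraries plus 0.01 (horizontal axis) for the genes tested; 114 genes beyond 5 on the vertical axis are not drawn. Orange and blue points are the 2823 higher and 2910 lower genes, and black points are named genes; SRSF2 lies just under 0.

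Differentiation genes of stratified epithelium were higher in SRSF2-OE. As these cells mature, suprabasal keratins replace basal ones, and small proline-rich proteins, involucrin and related precursors are cross-linked into a cornified envelope. Of 37 such genes 34 passed the filter; 14 were called higher and 3 lower, with a median log2 fold change of 0.46. The 18 tested cornified envelope genes gave 9 higher and 0 lower. The 6 suprabasal keratins gave 2 higher, 0 lower and 4 not called, and the 10 kallikrein and S100 genes 3 higher and 3 lower. Without 1xCtrl replicate 2 the list gave 15 higher and 3 lower.

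KRT1, the suprabasal type II keratin (chromosome 12, 52674736 to 52680407, minus strand), read 12.5, 11.6 and 11.6 CPM in SRSF2-OE and 3.16, 2.67 and 2.56 CPM in 1xCtrl. That is a 4.25-fold difference of the means with no overlap (log2 fold change 2.09, SE 0.176, adjusted p = 6.37e-06 by edgeR). SPRR1B, a small proline-rich envelope precursor (chromosome 1, 153031202 to 153032900, plus strand), read 26.3, 22.6 and 28.5 CPM against 6.12, 6.98 and 5.6 CPM. Every SRSF2-OE library exceeded every control more than 3-fold, and the log2 fold change was 2.05 (SE 0.134, adjusted p = 9.49e-07 by edgeR). IVL, involucrin, read 12.5, 13.8 and 14.3 CPM against 3.79, 5.11 and 4.49 CPM (1.60, SE 0.149, adjusted p = 1.3e-05 by edgeR). The 3 members called lower were all kallikreins, serine proteases that shed corneocytes. KLK8 read 7.71, 6.73 and 6.28 CPM against 11.4, 13.9 and 11 CPM (-0.81, adjusted p = 0.000336 by edgeR), with 747 of 1865 exon bases shared with a gene on its own strand. KLK7 fell from 1.78 ± 0.314 to 1.0 ± 0.153 CPM (-0.83, adjusted p = 0.00382 by edgeR). KLK5 was 66.4 CPM against 79.3 CPM (-0.26, adjusted p = 0.0176 by edgeR), a call not made in the fit on these 2 groups alone or without SRSF2-OE replicate 2 or 3.

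The promoters of several of these genes carry a motif for AP-1, the dimer of FOS and JUN family proteins that drives envelope genes in keratinocytes. The sequences are shown because the envelope genes and the AP-1 genes described next were both higher; motif and genes were chosen after the values were seen. Each is the 150 bases before the gene start, 5′ to 3′ on the gene's strand, from RefSeq (GRCh38.p14), with TGACTCA or its reverse complement TGAGTCA in capitals.
IVL, chr1:152908396-152908545, plus strand: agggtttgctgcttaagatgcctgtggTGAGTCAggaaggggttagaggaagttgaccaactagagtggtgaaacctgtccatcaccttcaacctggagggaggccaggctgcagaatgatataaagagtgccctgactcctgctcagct
SPRR1A, chr1:152983931-152984080, plus strand: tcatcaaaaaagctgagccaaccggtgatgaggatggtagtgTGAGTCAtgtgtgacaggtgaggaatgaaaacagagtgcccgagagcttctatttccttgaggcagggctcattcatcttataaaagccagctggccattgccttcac
SPRR1B, chr1:153031053-153031202, plus strand: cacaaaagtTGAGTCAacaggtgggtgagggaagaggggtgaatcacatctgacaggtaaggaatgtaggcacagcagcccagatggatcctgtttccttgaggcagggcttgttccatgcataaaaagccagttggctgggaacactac
ECM1, chr1:150507959-150508108, plus strand: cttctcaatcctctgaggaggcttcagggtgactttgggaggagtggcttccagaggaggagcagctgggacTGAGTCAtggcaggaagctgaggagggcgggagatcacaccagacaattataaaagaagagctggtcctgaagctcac
The motif starts 123 bases before the gene start in IVL, 108 in SPRR1A, 141 in SPRR1B and 78 in ECM1. SPRR1A, a second small proline-rich precursor, read 2.37, 2.46 and 3.18 CPM against 1.07, 1.78 and 1.05 CPM (1.03, adjusted p = 0.0028 by edgeR). ECM1, a secreted glycoprotein of skin, read 16.9, 17.3 and 17.2 CPM against 9.37, 10.8 and 8.87 CPM (0.82, adjusted p = 8.71e-05 by edgeR). Searching 250 bases before the start on both strands, a match was present in 6 of the 12 promoters found for the 14 higher members (the above plus SBSN and SPRR3). Among the other tested members it was present in 2 of 13 promoters found (KRTDAP and SPRR2A), among the 16 higher AP-1 and immediate early genes in 0 of 11, and among all tested genes in 448 of 13984 (3.20%). SPRR1A, SPRR1B and SPRR3 are related genes close together on chromosome 1, and SPRR2A is of the same family. Their matches are therefore not independent of each other. A match of these letters is a description of the sequence and does not show a bound site. Whether AP-1 acts on these genes here was not tested.

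AP-1 subunits and other immediate early genes were higher as well. Of 29 genes 28 were tested, with 16 called higher, 0 lower and a median of 0.33; 5 of the 9 AP-1 subunit genes were among the 16. Without 1xCtrl replicate 2 the counts were 15 and 0, and 10 members were called higher without 1xCtrl replicate 1, without SRSF2-OE replicate 2 or on the 2 groups alone. FOSL1 (FRA1), an AP-1 subunit, read 83.7, 74.1 and 77.3 CPM in SRSF2-OE and 30.7, 36.1 and 28.2 CPM in 1xCtrl. All 3 SRSF2-OE libraries lay above 70 CPM and all controls below 40 CPM, with a log2 fold change of 1.31 (SE 0.0845, adjusted p = 8.8e-07 by edgeR). CCN2 (connective tissue growth factor) read 34.8, 38.5 and 40.05 CPM against 14.8, 14.5 and 16.4 CPM (1.31, SE 0.0781, adjusted p = 4.07e-07 by edgeR). CCN1, its matricellular relative, read 62.5, 71.5 and 72.5 CPM against 35.1, 36.5 and 37.2 CPM (0.92, adjusted p = 1.76e-06 by edgeR). ANKRD1, a nuclear ankyrin-repeat protein commonly read with CCN1 and CCN2 as a target of YAP, read 16.6, 16.6 and 15.3 CPM against 4.53, 4.16 and 4.79 CPM (1.84, adjusted p = 1.86e-07 by edgeR).

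In the EGF receptor family AREG, TGFA and HBEGF were higher, and EGF and the receptors EGFR and ERBB3 lower. Of 14 genes 3 were called higher and 4 lower; all 3 higher genes were ligands, and the lower ones were EGF, EGFR, ERBB3 and ERBB2, of which ERBB2 held in few alternatives. Without 1xCtrl replicate 2 the counts were 3 and 5. AREG, amphiregulin, read 71.4, 80.3 and 84.2 CPM against 47.5, 43.5 and 50.5 CPM (0.74, adjusted p = 1.54e-05 by edgeR). TGFA read 222, 237 and 235 CPM against 160.2, 141 and 154 CPM (0.61, adjusted p = 2.17e-05 by edgeR), and HBEGF 105, 125 and 112 CPM against 81.9, 75.3 and 88.7 CPM (0.47, adjusted p = 0.000767 by edgeR). The groups did not overlap for any of these ligands. EGF itself fell from 41.5, 34.9 and 42.4 to 21.8, 22.2 and 21.5 CPM (-0.86, adjusted p = 9.59e-06 by edgeR). EGFR, the receptor, read 583, 605 and 621 CPM against 859, 739 and 835 CPM (-0.43, adjusted p = 0.00215 by edgeR), and ERBB3 105, 108 and 105 CPM against 139.9, 135 and 137 CPM (-0.37, adjusted p = 0.000462 by edgeR). ERBB2 read 103, 102 and 103 CPM against 122, 168 and 108 CPM (-0.37, adjusted p = 0.0469 by edgeR). Its call was made in 7 of 18 alternatives, and without 1xCtrl replicate 2 it was lost (-0.17, adjusted p = 0.054).

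In the TGF-beta and BMP pathway, targets and feedback inhibitors were higher while several receptors were lower. Over 28 genes 12 were called higher and 6 lower, and 15 and 8 without 1xCtrl replicate 2. The 10 inhibitors and targets gave 9 higher and 0 lower, and the 9 receptors and SMADs gave 1 higher and 4 lower. ID2, an inhibitor of basic helix-loop-helix factors and a BMP target, read 15.5, 16.2 and 15.1 CPM against 6.59, 6.3 and 6.53 CPM (1.27, SE 0.102, adjusted p = 4.65e-06 by edgeR). ID4 read 14.6, 12 and 14.1 CPM against 6.17, 5.66 and 6.48 CPM (1.15, adjusted p = 6.98e-06 by edgeR). PMEPA1, a TGF-beta target that dampens SMAD signalling, read 19.1, 19.9 and 19.3 CPM against 6.05, 5.91 and 5.97 CPM. It was tight within both groups and rose 3.25-fold (1.70, SE 0.0994, adjusted p = 3.83e-07 by edgeR). TGFBR3, the betaglycan coreceptor, fell from 61.1, 50.3 and 62.3 to 33.7, 30.9 and 36 CPM (-0.79, adjusted p = 7.93e-05 by edgeR). The ligand TGFB2 fell from 15.6, 12.8 and 14.8 to 8.1, 8.08 and 9.07 CPM (-0.77, adjusted p = 3.98e-05 by edgeR), with 1371 of 5151 exon bases shared with a gene on the same strand.

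The other genes with the highest fold changes came from varied families. They were taken among genes of at least 5 CPM on average whose libraries did not overlap between the groups. LRRC38, an auxiliary subunit of BK potassium channels (chromosome 1, 13474977 to 13514048, minus strand), headed them at 9.05, 11 and 10.8 CPM against 2.22, 2.2 and 2.53 CPM (4.44-fold; log2 fold change 2.15, SE 0.122, adjusted p = 3.43e-07 by edgeR). SERPINB3, the squamous cell carcinoma antigen, read 7.82, 8.29 and 8.97 CPM against 2.03, 1.71 and 2.37 CPM (2.04, adjusted p = 4.55e-06 by edgeR); 620 of its 1777 exon bases are shared with the opposite strand. PHACTR3, a regulator of actin and protein phosphatase 1, read 9.97, 9.92 and 10.2 CPM against 2.24, 2.52 and 3.01 CPM (1.95, adjusted p = 3.83e-07 by edgeR). CPVL, a carboxypeptidase-like protein, read 13.4, 14.6 and 14.3 CPM against 3.97, 3.58 and 3.93 CPM (1.88, adjusted p = 2.29e-07 by edgeR). IL7R, the interleukin-7 receptor chain best known from lymphocytes, read 50.7, 54.6 and 57.8 CPM against 17, 15.8 and 18.2 CPM (1.67, adjusted p = 1.86e-07 by edgeR). FABP4, a fatty acid carrier of adipocytes and macrophages, read 38.4, 37.8 and 37.3 CPM against 11.7, 9.61 and 13.4 CPM (1.71, adjusted p = 5.53e-06 by edgeR). EPHB6, a kinase-dead ephrin receptor, read 10.4, 9.6 and 10.2 CPM against 2.68, 4.31 and 2.18 CPM, the control spread resting on replicate 2 (1.72; without that library 2.04). AJAP1, a membrane protein of adherens junctions, rose from 14.2 ± 0.613 to 44.5 ± 3.41 CPM (1.65, adjusted p = 6.21e-08 by edgeR).

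**Figure D3:**
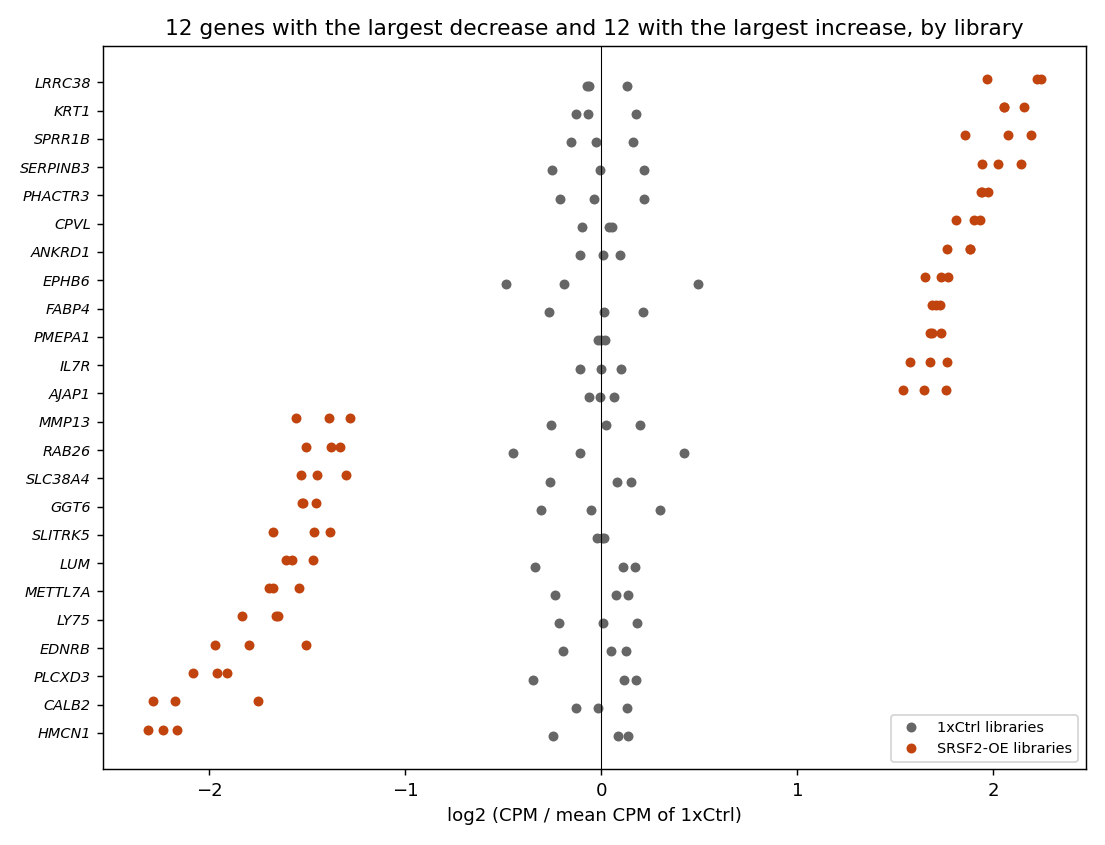
Log2 of CPM over the 1xCtrl mean (horizontal axis) for the 12 genes with the lowest and the 12 with the highest fold change of SRSF2-OE over 1xCtrl, among genes of at least 5 CPM whose groups do not overlap. Grey points are the 3 1xCtrl libraries and orange points the 3 SRSF2-OE libraries of each gene; lack of overlap was part of how the genes were chosen.

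The 12 genes with the lowest fold changes came from varied families too. HMCN1, hemicentin, an extracellular matrix protein (chromosome 1, 185734551 to 186190949, plus strand), read 5.28, 5.57 and 5.02 CPM in SRSF2-OE and 27.4, 21 and 26.4 CPM in 1xCtrl. This 4.71-fold decrease was the lowest value among the genes so chosen (log2 fold change -2.24, SE 0.115, adjusted p = 1.86e-07 by edgeR). CALB2, the calcium buffer calretinin, read 2.66, 1.84 and 1.99 CPM against 8.88, 9.84 and 8.19 CPM (-2.05, adjusted p = 1.74e-06 by edgeR). PLCXD3, a phospholipase-like protein, read 9.69, 8.89 and 10.03 CPM against 42.6, 29.6 and 40.9 CPM (-1.98, adjusted p = 3.44e-07 by edgeR). EDNRB, the endothelin B receptor, read 3.55, 3.15 and 4.35 CPM against 13.5, 10.8 and 12.8 CPM (-1.75, adjusted p = 1.76e-06 by edgeR). LY75, an endocytic receptor, read 9.48, 8.35 and 9.39 CPM against 33.7, 25.6 and 29.9 CPM, but 5018 of its 8798 exon bases are shared with a gene on its own strand, so the 2 cannot be told apart here. METTL7A, a lipid droplet protein with a methyltransferase fold, read 9.92, 10.1 and 11 CPM against 33.8, 27.3 and 35.4 CPM (-1.64, adjusted p = 4.07e-07 by edgeR). SLC38A4, an amino acid transporter, read 22.6, 21.4 and 25.2 CPM against 68.8, 51.7 and 65.4 CPM (-1.43, adjusted p = 1.62e-06 by edgeR). LUM, SLITRK5, GGT6, RAB26 and MMP13 completed the 12, with log2 fold changes from -1.55 to -1.40. LUM, lumican, a proteoglycan of collagen fibrils, read 6.58, 6.72 and 7.23 CPM against 22.6, 15.9 and 21.7 CPM (-1.55, adjusted p = 5.18e-06 by edgeR). In each of the 12 genes except CALB2, GGT6 and RAB26 the lowest of the control libraries was 1xCtrl replicate 2.

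Junction genes were lower in part. Of 20 tight junction genes 0 were called higher and 8 lower, and 0 and 10 without 1xCtrl replicate 2. CLDN1, a barrier-forming claudin, read 166, 164 and 189 CPM against 351, 284 and 348 CPM (-0.92, SE 0.0871, adjusted p = 1.44e-05 by edgeR). CLDN8, which seals against cations in kidney and gut, read 13.7, 11.8 and 13.1 CPM against 31.7, 25.4 and 30.3 CPM (-1.18, adjusted p = 3.05e-06 by edgeR). Among 19 desmosome and adherens junction genes 2 were called higher and 6 lower (3 and 8 without 1xCtrl replicate 2), while the 5 adherens junction genes were not called. DSG2, the widely expressed desmosomal cadherin, fell from 376, 305 and 364 to 254, 242 and 249.8 CPM (-0.49, adjusted p = 0.00081 by edgeR). DSG3 fell from 72.4, 61.1 and 72.7 to 54.5, 50.8 and 51.3 CPM (-0.40, adjusted p = 0.00363 by edgeR) and DSC2 from 79.6, 65.8 and 81.8 to 57, 55.4 and 58.3 CPM (-0.41, adjusted p = 0.00261 by edgeR). The 2 members called higher were DSG1 and DSG4, named here after their values were seen, cadherins of differentiated layers at under 1 CPM in these cells: DSG1 was 0.717 ± 0.0838 CPM against 0.403 ± 0.080 CPM, and DSG4 0.648 ± 0.053 against 0.241 ± 0.0487 CPM. The DSG1 call was not made without 1xCtrl replicate 2, 1xCtrl replicate 3 or SRSF2-OE replicate 3. The 8 basal and wound keratins gave 2 higher and 1 lower, and 4 and 1 without 1xCtrl replicate 2. Of 4 keratins induced by wounding 2 were higher, and of 4 basal keratins KRT5 was lower. KRT6A read 1288, 1107 and 1100.0 CPM against 611, 739.8 and 563 CPM (0.87, adjusted p = 4.4e-05 by edgeR). KRT16 read 28.6, 25 and 26.1 CPM against 11.2, 17.4 and 9.98 CPM (1.05, adjusted p = 0.0011 by edgeR). KRT5 was 1915, 1626 and 1680.3 CPM against 2062, 2422 and 1968 CPM (-0.31, adjusted p = 0.0193 by edgeR), a call not made in the fit on these 2 groups alone or without SRSF2-OE replicate 2 or 3. Simple epithelial keratins gave 2 higher and 0 lower of 9, and 5 and 0 without 1xCtrl replicate 2, with 1 higher without any one of the other libraries except SRSF2-OE replicate 3.

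Among 24 proteases and plasminogen activation genes, 23 were tested and 9 were called higher and 5 lower; without 1xCtrl replicate 2 the counts were 10 and 5. MMP1, the interstitial collagenase, read 1873, 2123 and 2051 CPM against 1181, 978 and 1267 CPM (0.82, SE 0.0937, adjusted p = 5.94e-05 by edgeR). MMP10, stromelysin 2, rose from 1.0, 0.928 and 1.08 to 3.18, 3.52 and 2.94 CPM (1.68, adjusted p = 5.57e-05 by edgeR). SERPINB2, an inhibitor of urokinase, read 100.5, 99.9 and 101 CPM against 54.8, 46.2 and 58 CPM (0.92, adjusted p = 1.44e-05 by edgeR). MMP13, another collagenase, went the other way, from 12.1, 8.8 and 10.7 to 3.58, 4.01 and 4.33 CPM (-1.40, adjusted p = 1.11e-05 by edgeR). PLAT, tissue plasminogen activator, fell from 105, 118 and 103 to 72.1, 70.4 and 76.2 CPM (-0.57, adjusted p = 5.06e-05 by edgeR).

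Structural matrix genes moved in both directions. The 30 matrix glycoproteins gave 7 higher and 8 lower (6 and 8 without 1xCtrl replicate 2), and 14 lower with the GC trend removed. TNC, tenascin-C, fell from 6.05, 6.75 and 5.53 to 1.3, 1.6 and 1.48 CPM (-2.07, SE 0.134, adjusted p = 8.8e-07 by edgeR), and NPNT, nephronectin, rose from 5.02, 4.25 and 4.72 to 12.3, 13.2 and 13.9 CPM (1.49, adjusted p = 9.06e-07 by edgeR). The 31 collagen chains gave 3 higher and 7 lower, but 8 and 7 without 1xCtrl replicate 2, which also turned their median from -0.09 to 0.27. With the GC trend removed and all libraries kept, that median was 0.008. The higher collagen count was 1 without 1xCtrl replicate 1, 1xCtrl replicate 3 or SRSF2-OE replicate 1 and with thinned counts, and 0 without SRSF2-OE replicate 2 or on the 2 groups alone. COL5A2, a regulator of fibril size, fell from 189.9, 189 and 174 to 113, 119.7 and 116 CPM (-0.66, adjusted p = 1.54e-05 by edgeR), and COL12A1 from 155, 135 and 147 to 89, 91.4 and 91.3 CPM (-0.68, adjusted p = 0.000193 by edgeR). Integrins and laminins gave 4 higher and 7 lower of 28 tested (6 and 11 without that library, 2 higher without SRSF2-OE replicate 2 or 3). ITGA4, the alpha 4 integrin, rose from 1.64, 1.51 and 1.79 to 5.69, 5.92 and 6.33 CPM (1.86, adjusted p = 9.79e-07 by edgeR). Beside these lists, 9 fibroblast markers summed to 27.8 to 28.4 CPM in SRSF2-OE and 36.2 to 43.1 CPM in 1xCtrl; LUM is one of them, 6 of the 9 were under 1 CPM in all 6 libraries, and 0 were at 0 in all 6 libraries. Their part in the result was not tested, and in bulk RNA fewer cells of a type and less RNA per cell cannot be told apart.

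Regulators and markers of the epithelial to mesenchymal transition, in which epithelial cells lose contacts and gain motility, gave 9 higher and 1 lower of 23 tested (10 and 1 without 1xCtrl replicate 2, 5 higher without SRSF2-OE replicate 2). This list holds genes of both states. The 8 mesenchymal markers gave 3 higher and 1 lower, with a median log2 fold change of -0.07. The 7 transcription factors tested gave 4 and 0, and the 8 epithelial regulators 2 and 0. OVOL1, a zinc finger repressor that holds the epithelial state, read 23.5, 22.6 and 20.9 CPM against 9.06, 12.8 and 8.47 CPM (1.14, adjusted p = 4.94e-05 by edgeR). FOXC2, a forkhead factor of mesenchyme, read 9.0, 8.13 and 7.6 CPM against 4.28, 3.68 and 3.95 CPM (1.05, adjusted p = 2.98e-05 by edgeR). S100A4 was the member called lower, at 12.3, 11.4 and 13.5 CPM against 17.1, 14.7 and 16.4 CPM (-0.38, adjusted p = 0.0117 by edgeR).

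The RNA and protein synthesis machinery was higher by small amounts in many genes. Core spliceosome genes gave 20 higher and 1 lower of 34 (23 and 2 without 1xCtrl replicate 2), with a median of 0.25, and all 7 Sm protein genes were among the higher ones. SNRPF, an Sm ring protein of the small nuclear ribonucleoproteins, read 69.8, 69.8 and 66.3 CPM against 43.2, 46.3 and 49 CPM (0.57, adjusted p = 2.05e-05 by edgeR). PRPF8, the scaffold at the catalytic centre, was the one called lower, at 192, 177 and 175 CPM against 238, 223 and 213 CPM (-0.31, adjusted p = 0.00815 by edgeR). The 25 hnRNP genes gave 12 higher and 1 lower (11 and 1 without that library). HNRNPAB read 218, 215 and 201 CPM against 138, 140.2 and 141 CPM (0.60, adjusted p = 1.05e-05 by edgeR), and HNRNPD, which binds AU-rich RNA, 364, 378 and 354 CPM against 279, 251 and 296 CPM (0.41, adjusted p = 0.000564 by edgeR). Nonsense-mediated decay factors gave 4 higher and 1 lower of 16 (6 and 1), with 2 higher without 1xCtrl replicate 1 and 0 lower without 1xCtrl replicate 3 or SRSF2-OE replicate 1. Of the 4 higher ones 3 belong to the exon junction complex, such as RBM8A at 91.5, 94.8 and 89.5 CPM against 69, 69.6 and 68.2 CPM (0.42, adjusted p = 0.000396 by edgeR). The 20 higher spliceosome genes became 13 with total counts alone or without SRSF2-OE replicate 2, and 10 without 1xCtrl replicate 1, without SRSF2-OE replicate 1 or on the 2 groups alone. The 12 higher hnRNP genes became 7 without SRSF2-OE replicate 2 and 6 on the 2 groups alone.

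Cytosolic ribosomal protein genes gave 43 higher and 0 lower of 79 with a median of 0.28, and 54 and 0 without 1xCtrl replicate 2. RPL24, of the large subunit, read 408, 406 and 372 CPM against 280.0, 264 and 295 CPM (0.50, adjusted p = 0.00024 by edgeR), and these genes have many processed pseudogenes with which reads may be shared. Nucleolar factors of ribosome assembly gave 20 higher and 1 lower of 34 (24 and 1). NPM1, nucleophosmin, read 1072, 1045 and 944 CPM against 730.3, 649 and 784 CPM (0.50, adjusted p = 0.000702 by edgeR), while FBL, the rRNA methyltransferase fibrillarin, was lower at 112, 105 and 104 CPM against 139, 133 and 138 CPM (-0.35, adjusted p = 0.00082 by edgeR). Host genes of small nucleolar RNAs gave 11 higher and 1 lower of 22 (10 and 2), and 7 higher without 1xCtrl replicate 1, without SRSF2-OE replicate 3 or on the 2 groups alone. SNHG17 rose to 107, 116 and 118 from 76.8, 75.5 and 77.3 CPM (0.57, adjusted p = 5.54e-05 by edgeR), and SNHG14 fell to 121, 128 and 127 from 202, 169 and 207 CPM (-0.62, adjusted p = 9.71e-05 by edgeR). Nuclear genes of the respiratory chain gave 28 higher and 0 lower of 77, and 37 and 5 without that library (0 lower without 1xCtrl replicate 3, 2 to 4 without any other one); ATP5F1E, the epsilon subunit of ATP synthase, read 138, 131 and 133 CPM against 80.5, 85.1 and 85 CPM (0.68, adjusted p = 4.78e-06 by edgeR). SDHA, the flavoprotein of complex II, read 389, 375 and 371 CPM against 239.8, 293 and 235 CPM (0.56, adjusted p = 0.000166 by edgeR). The 13 mitochondrial mRNAs gave 4 higher and 0 lower, 2 and 0 without it or with total counts alone, and 0 and 0 without SRSF2-OE replicate 2 or SRSF2-OE replicate 3. Aminoacyl-tRNA synthetases gave 4 and 1 of 20 (5 and 2), and replication-dependent histones, whose mRNAs lack a polyA tail, 6 and 0 of 49 (9 and 0). The histone calls became 1 to 3 with no filter, on the 2 groups alone or without any one library other than 1xCtrl replicate 2. The count of 43 higher ribosomal genes fell without 1xCtrl replicate 1 (20), SRSF2-OE replicate 1 (22) or SRSF2-OE replicate 2 (23), and 26 on the 2 groups alone. Nucleolar factors gave 13 without SRSF2-OE replicate 1 and on the 2 groups alone. The respiratory chain gave 18 without 1xCtrl replicate 1, SRSF2-OE replicate 1 or SRSF2-OE replicate 3, and 17 on the 2 groups alone.

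Fold change also went with the annotated exon length of protein-coding genes, measured as the union of exons. In the shortest quartile (up to 3027 bases) 20.2% were called higher and 7.06% lower, and in the longest (from 7271 bases) 9.84% higher and 24.5% lower; the median log2 fold change went from 0.11 to -0.10. The same held without 1xCtrl replicate 2, at 26.6% and 8.26% against 12.6% and 33.9%. The median exon length was 2475 bases in the respiratory chain list, 3109 in the ribosomal list and 2065 in the stratified differentiation list. It was 7109 in matrix glycoproteins and 9124 in collagen chains. The part of length in those counts was not tested.

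**Figure D4:**
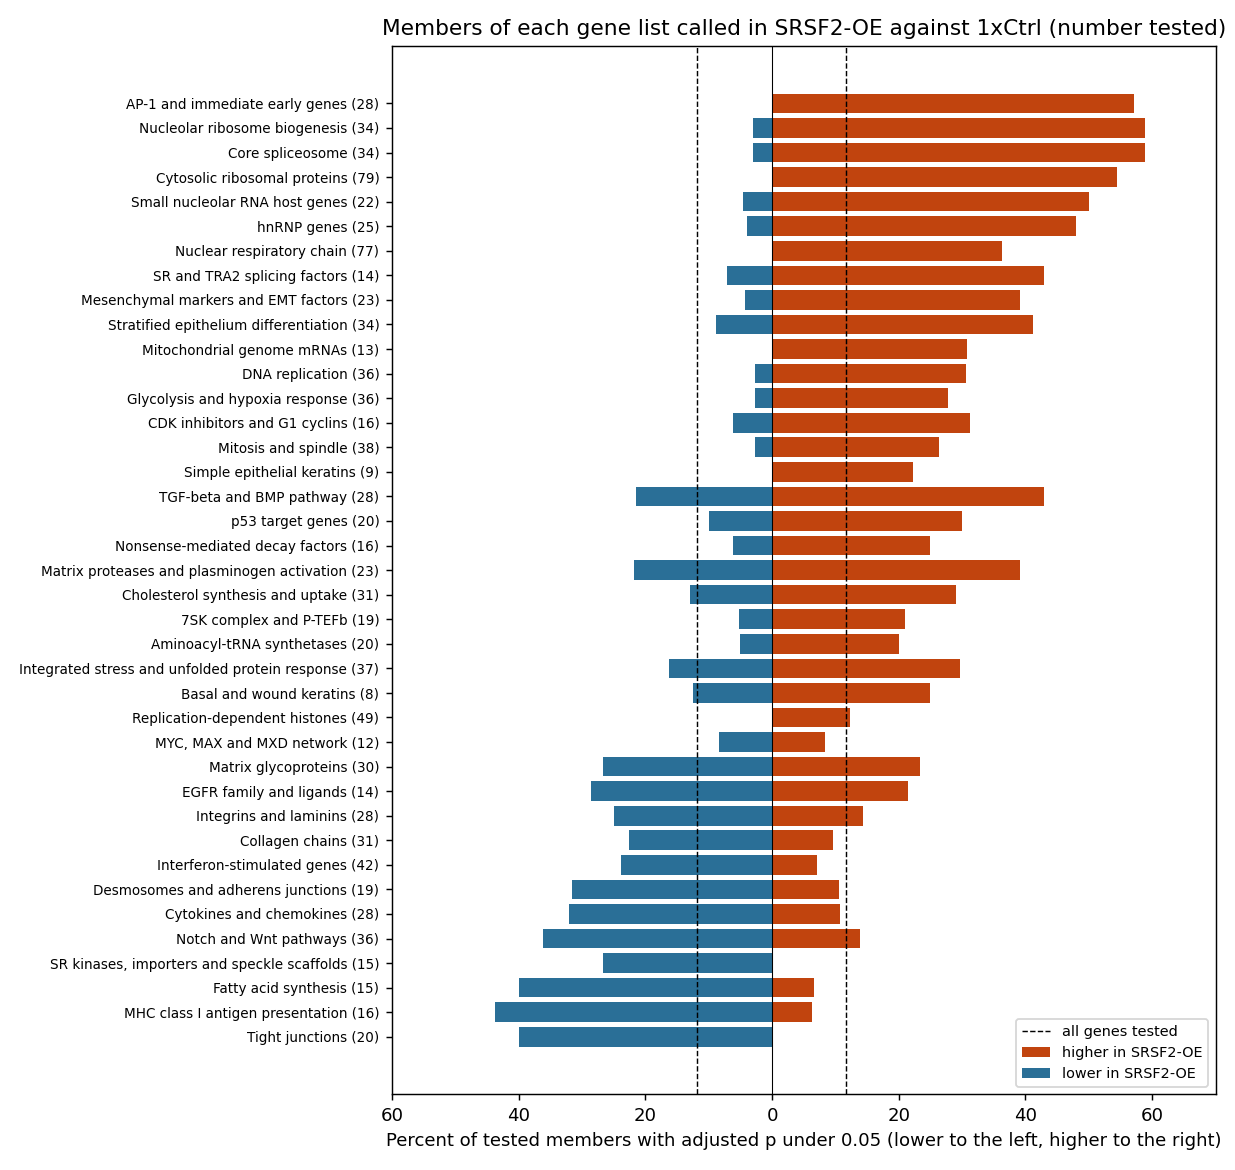
Percent of the tested members of each gene list called higher (orange, to the right) or lower (blue, to the left) in SRSF2-OE against 1xCtrl, with the number tested in brackets. Dashed lines mark 11.6% higher and 11.9% lower over all genes tested. The shares among protein-coding genes alone, 14.9% and 15.4%, are not drawn. AP-1, nucleolar, spliceosome and ribosomal lists lie farthest to the right, and tight junctions at the bottom hold no higher member.

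Cell cycle genes were higher in moderate numbers. DNA replication gave 11 higher and 1 lower of 36 (16 and 3 without 1xCtrl replicate 2), for example FEN1, the flap endonuclease, at 107, 107 and 99.5 CPM against 71.3, 77.7 and 74.9 CPM (0.48, adjusted p = 8.76e-05 by edgeR). Mitosis and spindle gave 10 and 1 of 38 (12 and 4). AURKA, the spindle kinase, read 154, 156 and 135 CPM against 105, 96.1 and 111 CPM (0.51, adjusted p = 0.000289 by edgeR), and ASPM, a spindle pole protein, was lower at 246, 256 and 257 CPM against 325, 277 and 344 CPM (-0.32, adjusted p = 0.0154 by edgeR). CDKN1A, the p21 inhibitor of cyclin-dependent kinases and a p53 target, was higher too, at 47.3, 43.5 and 43.1 CPM against 19.6, 22.7 and 20.1 CPM (2.15-fold; 1.10, SE 0.0693, adjusted p = 7.3e-07 by edgeR). CCNE1, cyclin E1, read 80.3, 80.7 and 84.1 CPM against 47.8, 50.6 and 51.7 CPM (0.71, adjusted p = 4.39e-06 by edgeR). The 20 p53 targets as a list gave 6 higher and 2 lower (8 and 4, and 3 higher without 1xCtrl replicate 1), and 16 CDK inhibitors and G1 cyclins gave 5 and 1 (6 and 2). The higher count of this list was 2 without 1xCtrl replicate 1, 1xCtrl replicate 3, SRSF2-OE replicate 1 or SRSF2-OE replicate 3, and 3 without SRSF2-OE replicate 2, with total counts alone or on the 2 groups alone. In the MYC, MAX and MXD network 1 of 12 genes was called higher and 1 lower (3 and 1). The 11 higher replication genes became 4 on the 2 groups alone, 7 with total counts alone and 5 to 7 without any one library other than 1xCtrl replicate 2 or 3. The 10 higher mitosis genes became 6 without 1xCtrl replicate 1, SRSF2-OE replicate 1 or SRSF2-OE replicate 2, and 17 with the GC trend removed. MYC was not called: it read 147, 144 and 143 CPM against 131, 143 and 125 CPM (0.12, adjusted p = 0.165 by edgeR), with overlap between the groups, although it passed without 1xCtrl replicate 2 (0.17, adjusted p = 0.0203). MXD1, a repressor that competes with MYC for MAX, read 62.1, 63.6 and 63.2 CPM against 34.2, 28.6 and 35.1 CPM (0.95, adjusted p = 3.35e-06 by edgeR).

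Metabolic and stress lists were mixed. Glycolysis and hypoxia response gave 10 higher and 1 lower of 36 (14 and 2 without 1xCtrl replicate 2). Once the GC trend was removed 17 were higher, where all genes went from 2823 to 4066 higher. EGLN3, an oxygen-sensing prolyl hydroxylase, read 3.47, 3.45 and 3.71 CPM against 1.39, 1.04 and 1.64 CPM (1.38, adjusted p = 4.17e-05 by edgeR), whereas CA9, carbonic anhydrase 9 and a common hypoxia marker, was the one called lower, at 4.29, 4.42 and 3.6 CPM against 7.19, 8.82 and 6.4 CPM (-0.86, adjusted p = 0.000421 by edgeR). In cholesterol metabolism the 20 synthesis enzymes gave 9 higher and 0 lower, and the 11 uptake and regulation genes 0 higher and 4 lower; the whole list gave 10 and 4 without that library. EBP, a sterol isomerase, read 127, 137 and 141 CPM against 106, 95.4 and 95.4 CPM (0.45, adjusted p = 0.000291 by edgeR), and ABCG1, a cholesterol exporter, 3.96, 3.3 and 4.1 CPM against 7.04, 6.5 and 6.41 CPM (-0.81, adjusted p = 7.88e-05 by edgeR). Fatty acid synthesis gave 1 higher and 6 lower of 15 (1 and 9; 0 higher without any one of the libraries except 1xCtrl replicate 2 and SRSF2-OE replicate 3), with SCD, the stearoyl-CoA desaturase, at 1952, 1989.5 and 2038 CPM against 2707, 2268 and 2595 CPM (-0.34, adjusted p = 0.00708 by edgeR). Stress response genes gave 11 higher and 6 lower of 37 (14 and 9). ATF5, a stress transcription factor, rose from 7.22, 8.99 and 7.7 to 15, 14.5 and 13.8 CPM (0.86, adjusted p = 8.76e-05 by edgeR), and ASNS, asparagine synthetase, fell from 53.9, 49.7 and 54.9 to 42.8, 43 and 39.9 CPM (-0.33, adjusted p = 0.00388 by edgeR).

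Interferon-stimulated genes gave 3 higher and 10 lower of 42 (4 and 15 without 1xCtrl replicate 2), MHC class I presentation 1 and 7 of 16 (1 and 8), and cytokines and chemokines 3 and 9 of 28 (4 and 9). Removing the GC trend gave 8 higher interferon genes and 14 lower ones, where all genes gave 4066 higher and 4123 lower. Scaling by total counts alone gave 1 and 16. Its higher count was 0 without 1xCtrl replicate 1 or SRSF2-OE replicate 1 and on the 2 groups alone, and 1 without SRSF2-OE replicate 2. The 1 higher MHC gene was not called with the GC trend removed. The fit on the 2 groups alone gave 4 lower MHC genes and 4 lower cytokines. MHC presentation also gave 4 lower without SRSF2-OE replicate 1. IFITM1, a membrane restriction factor, read 16.4, 13.3 and 16.6 CPM against 27.2, 30.9 and 21.1 CPM (-0.78, adjusted p = 0.000474 by edgeR). ERAP1, which trims peptides for MHC class I, read 71, 72.7 and 71.4 CPM against 106, 85.6 and 105 CPM (-0.46, adjusted p = 0.000973 by edgeR), and TAPBP, tapasin, which loads those peptides, 146, 142 and 150.4 CPM against 196, 251 and 181 CPM (-0.52, adjusted p = 0.00223 by edgeR). IL1B read 11.9, 11.6 and 10.4 CPM against 16.5, 14.7 and 15.8 CPM (-0.47, adjusted p = 0.000903 by edgeR), and IL23A, a subunit of interleukin 23, rose from 1.45, 2.11 and 1.45 to 4.45, 4.31 and 4.14 CPM (1.36, adjusted p = 5.34e-05 by edgeR). Immune cell markers summed to 21.6 to 23.7 CPM in SRSF2-OE and 10.6 to 18.4 CPM in 1xCtrl. Of the 9, CD3D, CD3E, MS4A1 and NKG7 were at 0 and 7 were under 1 CPM in all 6 libraries. CD68 was the marker called higher (22.7, 20.6 and 21.3 against 11.8, 15.6 and 9.14 CPM, not called on the 2 groups alone), with 1789 of 2189 exon bases shared with another gene on its strand, and CD14 the one called lower (0.775, 0.70 and 0.715 against 1.36, 2.63 and 1.19 CPM). Their part in the counts of immune genes was not tested.

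Notch and Wnt pathway genes gave 5 higher and 13 lower of 36 tested, and 7 and 13 of 37 without 1xCtrl replicate 2. The higher count was 3 without 1xCtrl replicate 1 or any one SRSF2-OE library, with total counts alone and on the 2 groups alone. DKK3, a secreted relative of the Wnt inhibitors, read 33.8, 34.2 and 34.4 CPM against 54.7, 56.1 and 55 CPM, with little spread in either group (-0.70, adjusted p = 2.63e-06 by edgeR). DKK1, a Wnt inhibitor, rose from 322, 311 and 341 to 458, 459.9 and 519 CPM (0.56, adjusted p = 5.1e-05 by edgeR). NOTCH3, a Notch receptor, fell from 157, 242 and 128 to 95.5, 84.2 and 96 CPM (-0.93, adjusted p = 0.0088 by edgeR), a call not made on the 2 groups alone. FZD5, a Wnt receptor, fell from 35.5, 31.5 and 35.3 to 22.3, 23.7 and 24.8 CPM (-0.53, adjusted p = 0.000248 by edgeR).

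The same genes were read against the other lines of the table. The comparisons of SRSF2-OE with SRSF3-OE and with SRSF7-OE use the same SRSF2-OE libraries, so their values stand beside those above without being separate evidence. Against SRSF3-OE 6523 genes (26.8%) were called (12.6% higher, 14.1% lower), and against SRSF7-OE 5899 (24.2%; 11.5% and 12.8%). The stratified differentiation list gave 25 higher and 2 lower of 34 against SRSF3-OE and 16 higher and 6 lower against SRSF7-OE. SPRR1B read 2.71, 3.08 and 3.58 CPM in SRSF3-OE and 5.09, 4.13 and 5.07 CPM in SRSF7-OE, so that SRSF2-OE exceeded them by 3.04 and 2.44 on the log2 scale (adjusted p = 3.16e-08 and 4.52e-07, edgeR). KRT1 read 1.61, 1.54 and 2.51 and 1.2, 1.57 and 1.39 CPM in those lines, again under every SRSF2-OE library. The ribosomal protein list gave 2 higher and 1 lower against SRSF3-OE and 0 and 4 against SRSF7-OE. Core spliceosome genes gave 2 higher and 6 lower against SRSF3-OE and 6 and 1 against SRSF7-OE. In the same order, hnRNP genes gave 2 and 2, then 7 and 0. Nuclear genes of the respiratory chain gave 8 and 4, then 4 and 7. Nucleolar factors gave 0 higher and 13 lower against SRSF3-OE and 17 and 0 against SRSF7-OE. FOSL1 was 65.8 ± 2.61 CPM in SRSF3-OE and 38.7 ± 1.43 CPM in SRSF7-OE, differing from SRSF2-OE by 0.25 and 1.02 (edgeR adjusted p = 0.0385 and 5.19e-06). PMEPA1 and AJAP1 did not pass against SRSF3-OE (0.21, adjusted p = 0.135; -0.08, adjusted p = 0.408). HMCN1, at 4.26 ± 0.388 CPM in SRSF3-OE, did not pass there either (0.31, adjusted p = 0.0543 by edgeR), and METTL7A and GGT6 were higher in SRSF2-OE than in SRSF3-OE (0.66 and 0.95). Of the 12 lowest genes, 6 had a positive log2 value against SRSF3-OE and 6 a negative one.

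The 3xSR cells and 3xCTL share no library with this comparison and were tested in their own table, where 15.3% of genes were called higher and 13.7% lower. Of the 12 highest genes above, 10 were called higher there and 1 lower, and of the 12 lowest, 8 were called lower and 1 higher. LRRC38 rose in 3xSR by 3.22 on the log2 scale, FABP4 by 2.94 and CPVL by 4.55 (adjusted p = 2.17e-08, 7.19e-10 and 1.01e-07, edgeR). ANKRD1 was the gene called lower there (-0.42, adjusted p = 0.0158), and CALB2 the one called higher (0.46, adjusted p = 0.00188). HMCN1 was lower in both (-1.73 in 3xSR, adjusted p = 2.24e-07 by edgeR). Over all 22941 genes tested in both tables, 2549 were called in both, which is 44.7% of the calls in SRSF2-OE and 38.0% of those in 3xSR. Of these, 960 were higher in both, 785 lower in both, 265 higher in SRSF2-OE and lower in 3xSR, and 539 the reverse. The AP-1 and immediate early list gave 19 higher and 2 lower of 28 in 3xSR, and cytokines and chemokines 18 higher and 3 lower, where SRSF2-OE had 3 and 9. Ribosomal protein genes gave 8 higher and 4 lower of 79 in 3xSR. By exon length, 14.4% of the shortest quartile were higher and 17.2% lower, against 24.6% and 16.5% of the longest, in that comparison. SRSF2 did not pass in 3xSR either (-0.06, adjusted p = 0.389 by edgeR), and SRSF6 was higher (0.36, adjusted p = 0.000674).

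**Figure D5:**
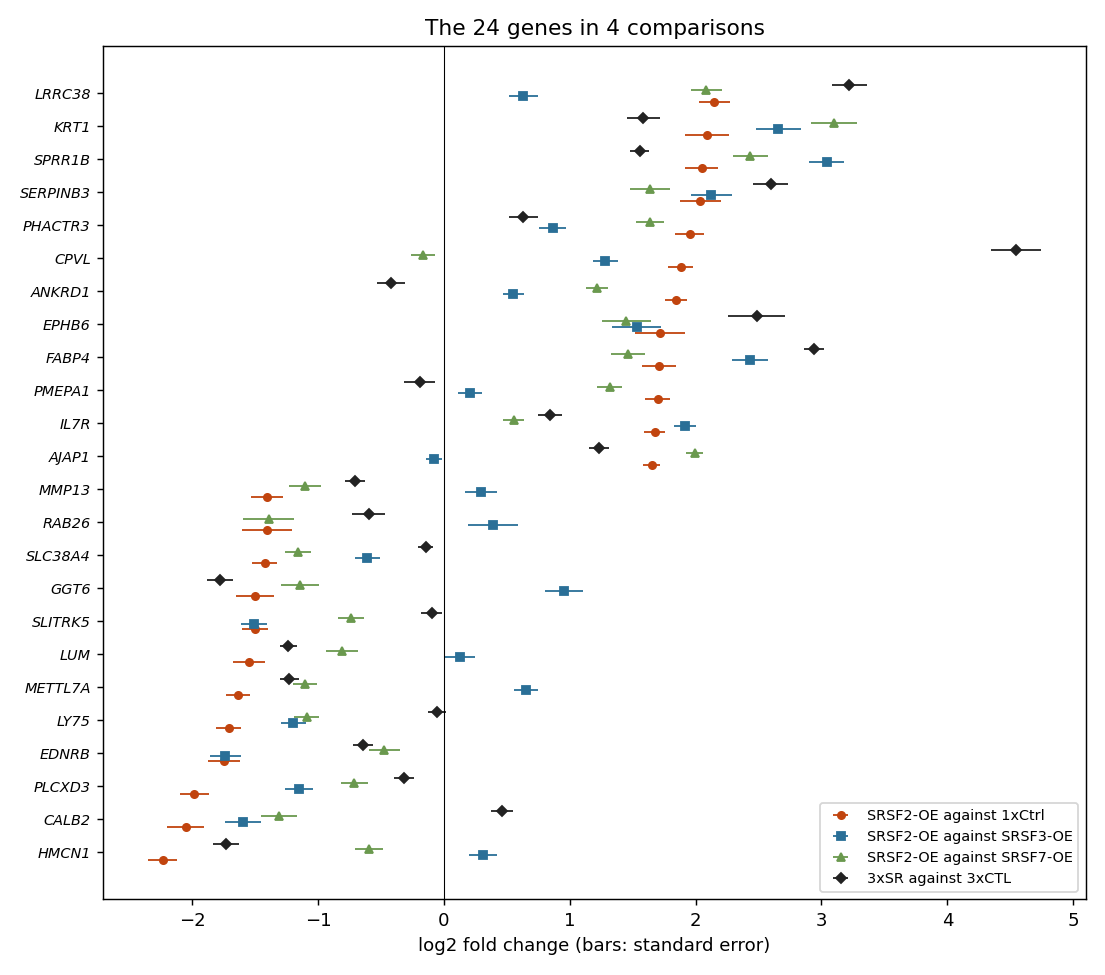
Log2 fold change with its standard error (horizontal axis) of the 24 genes named for their size in SRSF2-OE against 1xCtrl (circles), SRSF2-OE against SRSF3-OE (squares), SRSF2-OE against SRSF7-OE (triangles) and 3xSR against 3xCTL (diamonds). The first 3 comparisons share the SRSF2-OE libraries. Of the 12 lowest genes, 6 lie above 0 against SRSF3-OE, HMCN1, METTL7A and GGT6 among them. CPVL is highest in 3xSR.

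Markers of other cell types were summed as well. Endothelial markers summed to 0.604 to 0.804 CPM in SRSF2-OE and 0.658 to 0.772 CPM in 1xCtrl, with all 6 under 1 CPM. Red cell and platelet markers were all under 1 CPM, with HBB at 0 in all 6 libraries. Neuronal markers summed to 53.9 to 59.9 CPM and 41.9 to 66.5 CPM, with SNAP25 at 0; SYT1, a synaptic vesicle protein, was called lower (8.34, 8.39 and 7.76 against 11.1, 9.41 and 12.3 CPM). Luminal markers gave 5 higher and 5 lower of 16 tested (3 and 4 without 1xCtrl replicate 2, 3 higher without SRSF2-OE replicate 1), with TFF1 and TFF3 at 0; MUC1, an epithelial mucin, fell from 12.2, 13.2 and 10.5 to 5.12, 5.31 and 5.69 CPM (-1.16, adjusted p = 1.5e-05 by edgeR). PGR, the progesterone receptor and one of the lower luminal markers, was named after its values were seen. It was at 0 counts in all 3 SRSF2-OE libraries and read 1.46, 1.14 and 1.21 CPM in 1xCtrl. In 2 of 3 SRSF3-OE and 1 of 3 SRSF7-OE libraries it had counts, at no more than 0.0305 CPM. The 10 genes used to check the cell type gave 2 higher and 5 lower, 4 and 4 without 1xCtrl replicate 2, and 3 lower without SRSF2-OE replicate 2 or 3 or on the 2 groups alone. With all libraries, the 3 receptor genes among them gave 1 higher, ESR1, and 2 lower, PGR and ERBB2. TP63, the basal keratinocyte regulator, read 161, 139 and 138 CPM against 201, 168 and 194 CPM (-0.36, adjusted p = 0.00708 by edgeR).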

How the data were processed

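The deposited gene-level counts were used as they stand. Per the submitters' processing notes, reads were handled with Trimmomatic 0.39, STAR and StringTie 2.1.3b on GRCh38.p13; their order, the annotation, the use of strand and whether a read pair counts once are not given in the sources used here. Groups came from the sample labels. Genes passing filterByExpr (minimum 10 counts, 15 in total) were tested with edgeR 4.0.16 in R 4.3.3 (TMM scaling, robust quasi-likelihood fit over the 12 libraries of the table, 2-sided, Benjamini-Hochberg adjustment over all genes, threshold 0.05), without a replicate block. Standard errors are the fold change over the square root of F. The 3xSR comparison was fitted in its own 9-library table. Symbols matched 42005 of 60668 identifiers, and positions and exon lengths come from GENCODE 29 (58561 identifiers found, 41838 of the same version). Of the symbols in 46 gene lists, 1141 of 1142 were found. Lists and genes were chosen with earlier results of these data known. Named genes were SRSF2, SRSF3, SRSF7 and MYC, the 12 highest and 12 lowest of at least 5 CPM on average, called, without overlap and with an SD under 50% of the mean in the higher group, and up to 3 per list and direction of at least 1 CPM. On simulated counts with 200 of 24362 genes changed 2-fold for SRSF2-OE against 1xCtrl, 52.5% were recovered with the right sign (96.0% of 101 genes that had at least 5 CPM), and 1.87% of the calls were false. The simulated counts were drawn gene by gene, with no GC trend in any library and fewer changed genes than were called here. Those rates may therefore not hold for these libraries. Alternatives were other scalings and filters, DESeq2 1.42.0, limma-voom (limma 3.58.1), a fit on 2 groups, a replicate block, thinned counts, removal of each library's GC trend, and leaving out each library. With 3 against 3 libraries the groups were too small for a test of outliers.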

Additional observations from a re-analysis of the deposited data

How the results depend on the processing

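The 5733 genes changed became between 4297 (fit on the 2 groups alone) and 8189 (GC trend removed) under the settings that keep all libraries, all within 1.5 times. The genes higher fell from 2823 to 1700 in the fit on 2 groups. Leaving out 1 library gave 4741 to 7545 changed, 1767 to 3640 higher and 2877 to 3905 lower; the count of higher genes fell by more than 1.5 times without 1xCtrl replicate 1 (1767) and without SRSF2-OE replicate 2 (1848). SRSF2 stayed below 1xCtrl throughout. Its difference was called after removal of the GC trend (-0.18), and also of that trend together with the replicate block (-0.18), and with no filter (-0.19), thinned counts (-0.19) and total counts alone (-0.22). Leaving out 1 library gave -0.22 to -0.15 for SRSF2, with edgeR adjusted p from 0.00951 to 0.0875.

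The replicate numbers are not said to pair cultures, and deviations of same-numbered libraries correlated at -0.02, -0.06 and -0.01; the replicate block gave 4934 calls, 2415 higher and 2519 lower, and SRSF2 was not called there. Of 196 named genes that were called, 154 were called under each of the 18 alternatives, 0 reversed, and the block ended 12 calls. Most of them were chosen from the calls by the size of their change, so these numbers do not carry over to the other calls. Of 1656 list counts under the alternatives, 246 moved by more than 1.5 times. The cause of these shifts was not tested. A gene under a count of 3 in a library cannot be told from 0 there.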

Other observations

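By annotated gene type, 15728 protein-coding genes were tested in SRSF2-OE against 1xCtrl, with 2336 called higher (14.9%) and 2426 lower (15.4%). The shares over all genes tested were 11.6% and 11.9%. Genes of mitochondrial transfer RNAs stood on one side: of 22 tested, 14 were called higher (63.6%) and 0 lower, with a median log2 fold change of 0.72. The RNA was polyA-selected, and counts by gene type were not taken under the alternatives, so how far this holds is not known. Processed pseudogenes, copies of mRNAs that can share reads with their parent genes, gave 94 higher and 34 lower of 1241. These shares, 7.57% and 2.74%, were both under those of all genes.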
